A study of Schizosaccharomyces pombe with 15 samples.

Results

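Transcripts of 10 fission yeast genes for heat shock chaperones of the cytosol and the mitochondrion were followed across 15 RNA sequencing libraries. The members were chosen by name, with earlier results of these data known. They were hsp104, hsp16, hsp9, hsp90, ssa1, ssa2, sks2, mas5, hsp60 (also mcp60) and sti1. All 10 were found among the 6998 genes listed and all 10 were among the 5214 with enough counts to be tested. The strain throughout was JY450, labelled wild type and grown in YE, a rich yeast extract medium. Cells were put on a membrane filter over YE agar. The groups, of 3 libraries each, were cells 10, 15 and 30 min after atmospheric-pressure plasma (an ionised gas that forms reactive oxygen and nitrogen species), cells treated with hydrogen peroxide (H2O2), and cells with no irradiation. The labels name log or stationary phase cells without saying which were used here. They give no time for the unirradiated cells, so the effect of plasma and that of time since the cells were handled cannot be told apart. The H2O2 libraries stand in a count table of their own, so that table and treatment cannot be told apart either, and neither their dose nor their time is given in the sources used here. In bulk RNA, fewer cells with a transcript and less transcript per cell cannot be told apart.

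Chaperones bind proteins that have not reached, or have lost, their folded shape. Small heat shock proteins hold unfolded chains, Hsp40 proteins pass them to Hsp70, Sti1 links Hsp70 to Hsp90, Hsp104 draws chains out of aggregates, and Hsp60 folds imported proteins in the mitochondrial matrix. In yeasts, heat shock factor (Hsf1) binds inverted repeats of the triplet GAA ahead of many of these genes, and in fission yeast the Sty1 and Atf1 stress pathway acts on stress genes more widely.

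The stretches ahead of 6 members are shown as examples, hsp9 among them being without a pair of such repeats. A tie between the repeats and how the members moved was not tested. Each runs from base -120 to base -31 relative to the annotated gene start on the gene's strand, in RefSeq assembly ASM294v3, and capitals mark matches to TTCNNGAA or GAANNTTC, the 2 ways in which a pair of repeats can face each other.
ssa1 (chrI:2297995-2298084, minus strand): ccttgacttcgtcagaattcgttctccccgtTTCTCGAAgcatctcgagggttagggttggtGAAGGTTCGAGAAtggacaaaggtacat
ssa2 (chrIII:2056923-2057012, plus strand): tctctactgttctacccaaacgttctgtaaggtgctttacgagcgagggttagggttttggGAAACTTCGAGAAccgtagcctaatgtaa
hsp90 (chrI:3891170-3891259, minus strand): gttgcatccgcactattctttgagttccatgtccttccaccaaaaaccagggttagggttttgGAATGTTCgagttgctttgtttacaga
hsp16 (chrII:2661023-2661112, minus strand): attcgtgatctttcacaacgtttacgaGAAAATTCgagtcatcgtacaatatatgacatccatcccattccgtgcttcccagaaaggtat
hsp60 (chrI:342128-342217, minus strand): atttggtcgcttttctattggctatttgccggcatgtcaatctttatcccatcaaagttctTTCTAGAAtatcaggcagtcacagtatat
hsp9 (chrI:5320707-5320796, minus strand): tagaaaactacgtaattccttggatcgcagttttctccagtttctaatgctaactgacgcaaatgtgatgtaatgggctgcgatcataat
In ssa1 and ssa2 a match of each kind overlaps, which gives 3 GAA units in a row. The longer window of 300 bases before the RefSeq start held at least 1 such match in 7 of the 10 members, against 19.5% of 5112 windows of all genes. The matches of mas5 and sti1 lie inside the intervals listed for counting, which reach further upstream than RefSeq. mas5 is listed from 1080922 and starts at 1081375 in RefSeq. sti1, on the minus strand, is listed to 1263716 and starts at 1263575 in RefSeq. hsp104, hsp9 and sks2 had none in these 300 bases. TTCNNGAA alone was found in 3 members and 9.76% of windows, and GAANNTTC alone in 6 members and 11.3% of windows. TGACGT, the letters of the Atf1 type of site, was found ahead of ssa2 (6.03% of windows). CCCCT, searched on both strands like the others, was found ahead of hsp9 and mas5 (10% of windows). The longest run common to the ssa1, ssa2 and hsp90 windows was AGGGTTAGGGTT, just before their matches closest to the start. It occurs in 20 of all windows (0.391%), and it was searched because it was seen in these sequences. A match of letters is not a site shown to be bound.

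**Figure D1:**
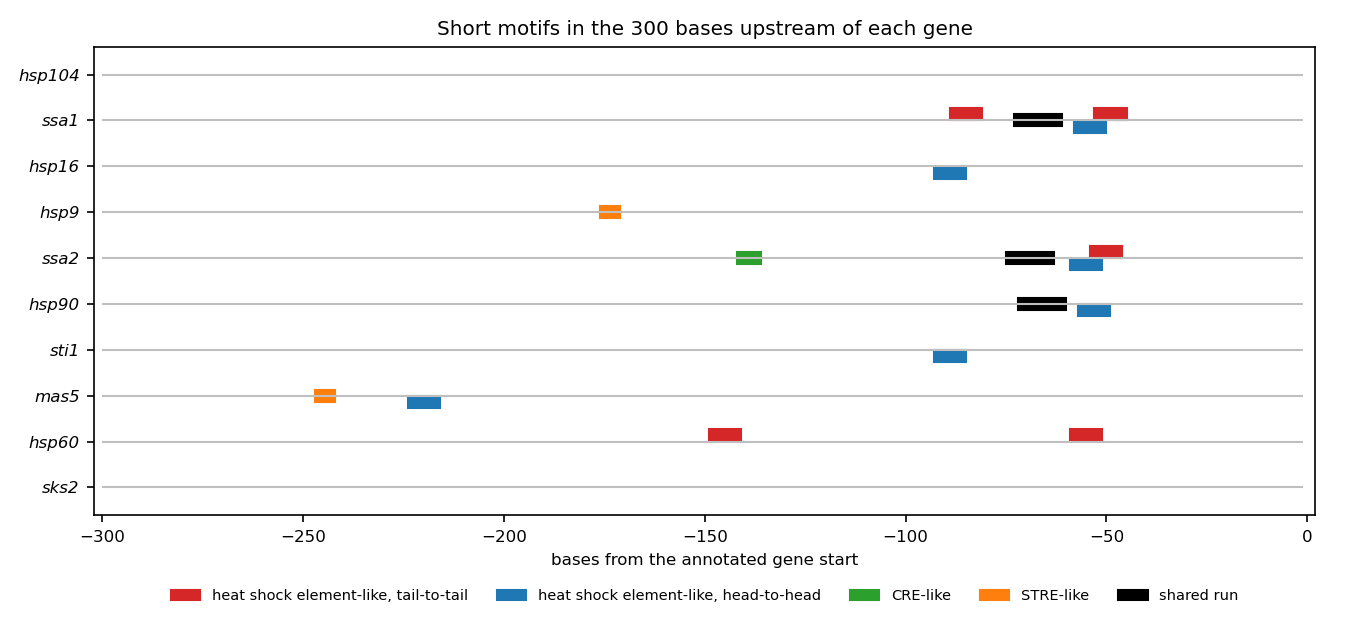
Positions of short motifs (coloured blocks) along the 300 bases before the RefSeq start of each of the 10 genes, in bases from that start. 7 genes have a heat shock element-like match of either orientation, most of them within 100 bases of the start, while hsp104 and sks2 have no block at all.

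Library totals ran from 14691752 to 23232575 counts. Values per library are CPM, read counts scaled to a common library size with TMM factors, given in the order of libraries a, b and c. One unirradiated library, b, stood apart for nearly all members. Its log2 ratio to the other unirradiated libraries was 2.12 for ssa1, 1.90 for hsp104, 1.33 for hsp16, 1.32 for hsp9, 1.25 for sti1, 0.88 for hsp90, 0.78 for ssa2, 0.59 for hsp60, 0.49 for mas5 and 0.05 for sks2. The median over the members was 1.06, against 0 over all genes tested, and 1.32% of all genes tested were more than 2-fold higher in that library. Library a of the 15 min group was lower than its companions, with a member median of -0.52 (0.01 over all genes tested). The member median was also negative in library a of the unirradiated, 10 min and 30 min groups (-0.45, -0.4 and -0.21). It was positive in library b of the 10, 15 and 30 min groups (0.28, 0.31 and 0.12). After H2O2 it was 0.09 in library a and -0.02 in library b. Fits without control b keep the plasma libraries of the same letter. All results against no irradiation are therefore given with and without control library b.

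**Figure D2:**
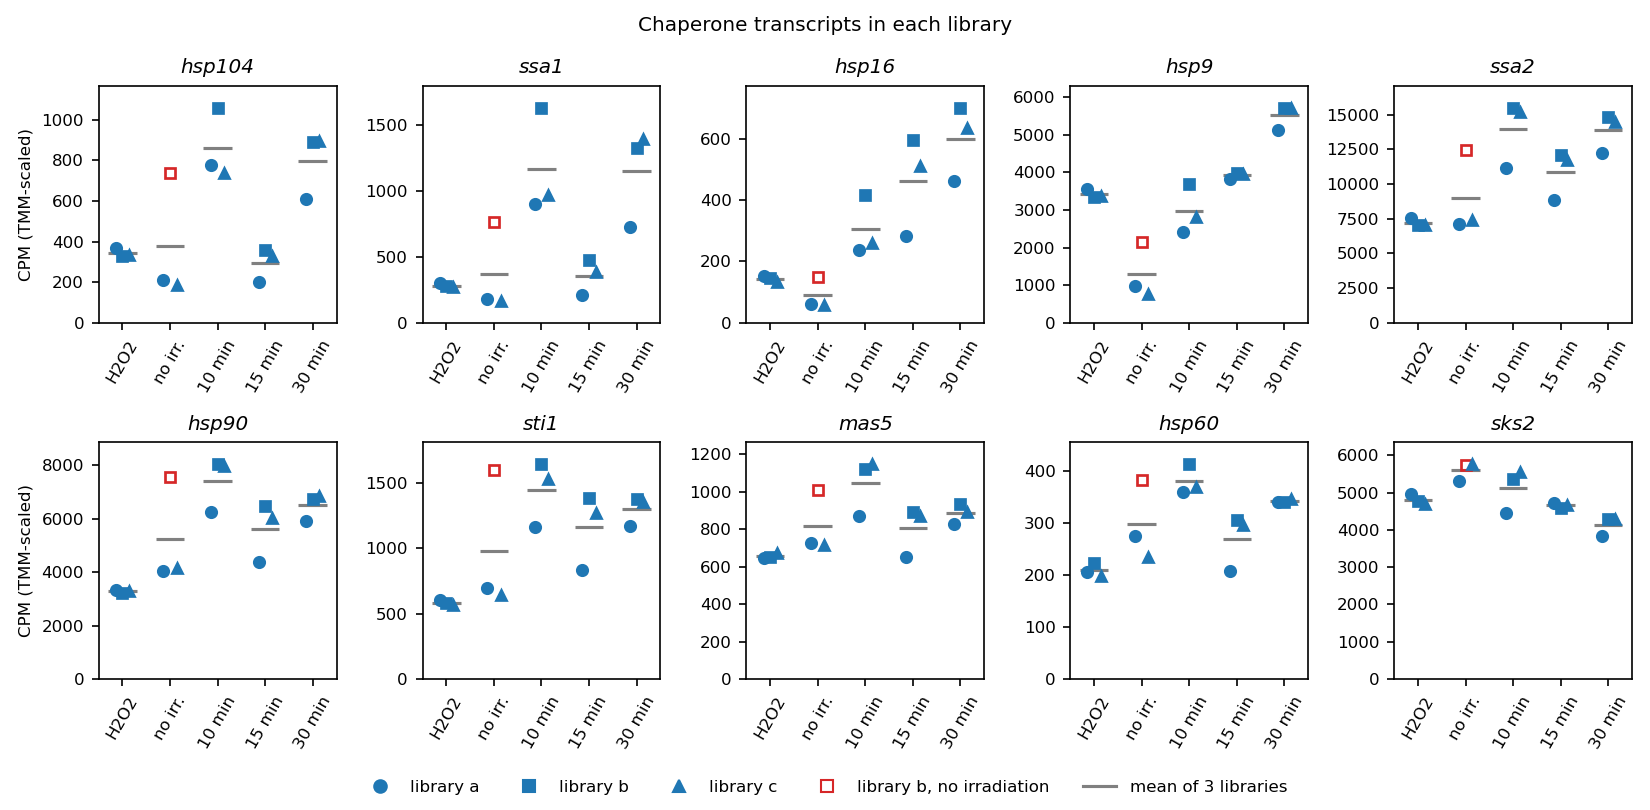
Level of each of the 10 chaperone transcripts in each library, in TMM-scaled CPM on linear axes from 0. Symbols stand for libraries a, b and c, grey bars for the mean of 3 libraries, and the open red square for control library b, which is above both other unirradiated libraries in every panel but that of sks2, where control c is higher.

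With all controls kept, the members differed in when and after which treatment they passed the test. hsp16 and hsp9 passed as higher at all 3 plasma times, ssa1, ssa2 and hsp104 at 10 and 30 min, and sks2 as lower at 15 and 30 min. After H2O2, hsp9 passed as higher and hsp90, sti1, hsp60 and sks2 as lower. Without control b, ssa1, ssa2 and hsp104 passed at 15 min too (1.03, 0.59 and 0.59). None of the 4 falls after H2O2 then passed, while hsp104 and hsp16 passed as higher. For ssa2, neither 15 against 10 min (-0.36, adjusted p = 0.249) nor 30 against 15 min (0.35, 0.193) passed. With all controls kept, 5 of the 10 members were higher and 0 lower at 10 min, where 21.9% of all genes tested were higher and 17% lower (edgeR quasi-likelihood test, adjusted p under 0.05). At 15 min 2 were higher (27.1% of all genes) and 1 lower (24.8%), at 30 min 5 were higher (31%) and 1 lower (29%), and after H2O2 1 was higher (28.5%) and 4 lower (25.6%). The median log2 fold change of the members was 0.60, 0.04 and 0.52 at 10, 15 and 30 min and -0.32 after H2O2, while that of all genes tested lay between -0.01 and 0. Treated and unirradiated libraries did not overlap for 4 members at 10 min (43.7% of all genes tested), 3 at 15 min (56%), 3 at 30 min (62.2%) and 6 after H2O2 (58.8%). At 15 min and after H2O2 the members' share of increases was thus no higher than that of all genes.

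Without control library b the picture was wider. Then 9 members were higher and 0 lower at 10 min (21.5% and 17.8% of all genes), 7 higher and 1 lower at 15 min (27.2% and 22.3%), 9 higher and 1 lower at 30 min (31.8% and 26%), and 3 higher and 0 lower after H2O2 (28% and 22.1%). The medians became 1.02, 0.59, 0.96 and -0.06. With the library letter as a block, which is apt at 10 min because same-lettered libraries of these 2 groups deviated together, 9 members were higher and 0 lower at 10 min with all libraries kept (22.3% and 17.8% of all genes), hsp90 (adjusted p = 0.0179), mas5 (0.0135), hsp60 (0.0287) and sti1 (0.0296) being added. With total counts in place of TMM, 7 were higher and 1 lower at 10 min (17.8% and 15.6% of all genes). In a fit to the 2 groups alone 3 were higher at 10 min (17.4% of all genes). Without single libraries other than control b the number was as low as 2 at 10 min, without control a (19.3%) or 10 min b (18.7%), and as low as 3 at 30 min, without control a (28%) or c (30.2%). The 1 member lower at 15 min did not pass without control c or 15 min library b or c, where 19.3% to 23.8% of all genes were lower. The number lower after H2O2 was 2 without any one H2O2 library (20.9% to 22.7%). Without control b and 15 min library a together, 9 members were higher and 0 lower at 15 min (26.2% and 21.7%).

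**Figure D3:**
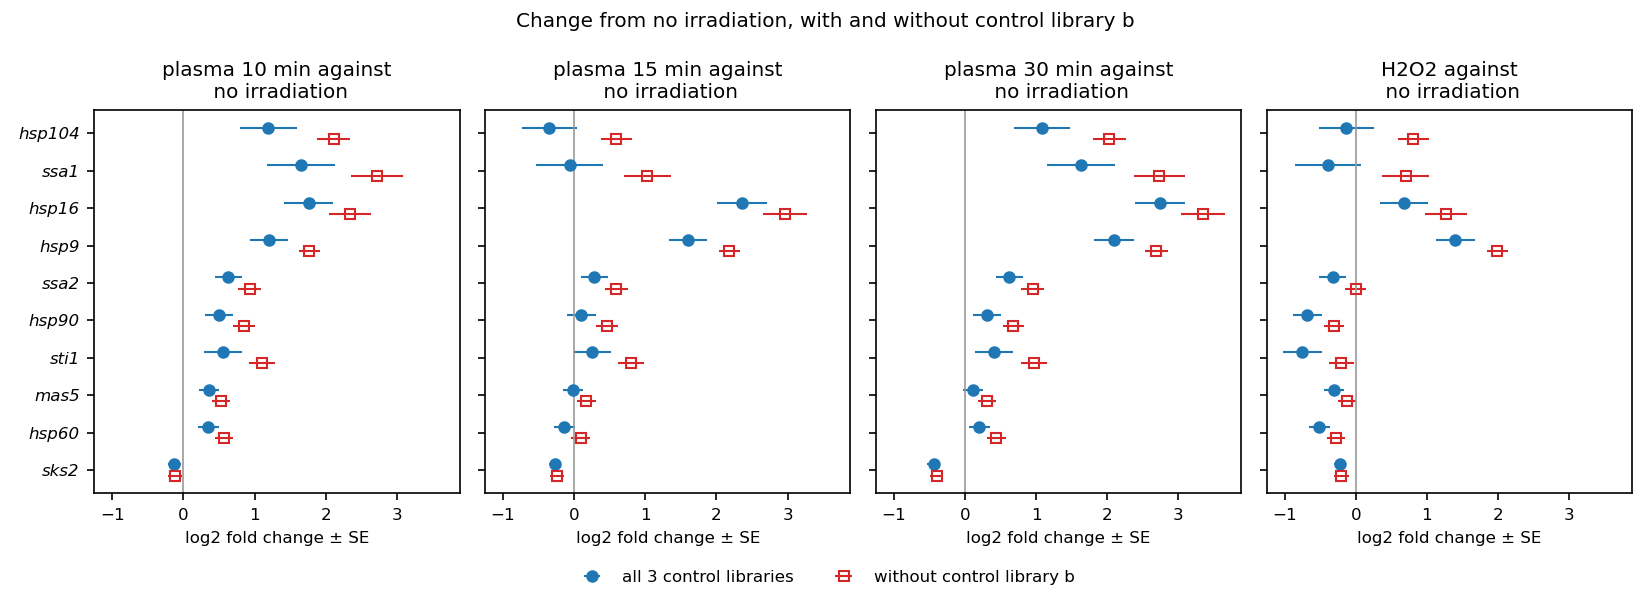
Log2 fold change ± SE of each member against no irradiation at 3 plasma times and after H2O2, with all 3 control libraries (filled circles) and without control library b (open squares). Leaving out control b moved every estimate but that of sks2 visibly to the right, and hsp104 and ssa1 at 15 min lie below 0 with all controls and at 0.59 and 1.03 without it.

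As a share of all counts, the 10 members together held 3.44 ± 0.317% at 10 min, 2.90 ± 0.359% at 15 min, 3.38 ± 0.204% at 30 min, 2.09 ± 0.023% after H2O2 and 2.42 ± 0.592% without irradiation (SD, n = 3 each), of which control library b held 3.10%. Per kb of listed length, ssa2 ranked first without irradiation at 3998 ± 1332 CPM per kb, followed by sks2 at 2588 ± 116, hsp90 at 2021 ± 765 and hsp9 at 1799 ± 1042, whose ranges overlap. At 30 min hsp9 ranked first at 7666 ± 469 CPM per kb, ahead of ssa2 at 6163 ± 626. After H2O2 hsp9 also ranked first, at 4759 ± 162 CPM per kb, ahead of ssa2 at 3208 ± 129. The lower end, hsp16, hsp104, hsp60 and ssa1, lay between 105 ± 61.1 and 155 ± 141 CPM per kb without irradiation and could not be ordered beyond the spread. hsp60 has 75.4% of its listed interval in common with the antisense non-coding gene SPNCRNA.639. Counting used no strand option, so reads there cannot be assigned with certainty and its level may be understated. Per kb of unshared length hsp60 stood at 523 ± 134 CPM without irradiation, sti1 at 411 ± 224 and mas5 at 414 ± 84.6, with spreads that overlap. The hsp60 value takes all its reads to come from the 569 unshared bases.

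hsp104 (SPBC16D10.08c, chromosome II, 3612265 to 3615320) encodes the aggregate-resolving ATPase, and ssa1 (SPAC13G7.02c, chromosome I, 2295580 to 2297981) a stress-inducible Hsp70; both were high at 10 min, low at 15 min and high again at 30 min. hsp104 had 776, 1060 and 739 CPM at 10 min, 201, 356 and 328 CPM at 15 min, 610, 891 and 893 CPM at 30 min, 371, 330 and 334 CPM after H2O2, and 209, 737 and 185 CPM without irradiation. The 10 min libraries all lay above every control, whereas control b lay within the range of the 30 min libraries and above all 15 min and H2O2 libraries. The log2 fold change was 1.19 ± 0.40 at 10 min (adjusted p = 0.0268), -0.35 ± 0.39 at 15 min (0.475), 1.08 ± 0.39 at 30 min (0.0273) and -0.13 ± 0.39 after H2O2 (0.799). Without control b these became 2.11 ± 0.23 (adjusted p = 5.78e-06), 0.59 ± 0.22 (0.0379), 2.03 ± 0.23 (3.33e-06) and 0.81 ± 0.22 (0.00706), all past the threshold. The direction at 15 min and after H2O2 thus turns on that one library. The 10 min call was lost without control a (0.90, adjusted p = 0.107), control c (0.86, 0.0892) or 10 min library b (0.99, 0.101), and the 30 min call without control a (0.79, 0.114), control c (0.76, 0.102), 30 min library b (1.0, 0.0724) or c (0.99, 0.0725). In fits to the 2 groups alone the adjusted p was 0.0814 at 10 min and 0.086 at 30 min.

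ssa1 had 897, 1630 and 965 CPM at 10 min, 210, 473 and 384 CPM at 15 min, 727, 1322 and 1393 CPM at 30 min, 299, 280 and 269 CPM after H2O2, and 182, 763 and 168 CPM without irradiation. Control b was again above all 15 min and H2O2 libraries, and above 1 of the 3 libraries at 30 min. The log2 fold change was 1.65 ± 0.48 at 10 min (adjusted p = 0.0134), -0.06 ± 0.47 at 15 min (0.92), 1.63 ± 0.48 at 30 min (0.00883) and -0.39 ± 0.47 after H2O2 (0.505). Without control b it was 2.72 ± 0.36 (adjusted p = 2.74e-05), 1.03 ± 0.33 (0.018), 2.73 ± 0.36 (1.19e-05) and 0.70 ± 0.33 (0.091). The 10 min call was lost without control a (1.32, adjusted p = 0.0585) or 10 min library b (1.31, 0.0677). The coding sequences of ssa1 and ssa2 are 82.6% identical with a longest common run of 56 bases, and 0.371% of the 50-base words of ssa1 occur in ssa2, so near-identical stretches are short.

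hsp16 (SPBC3E7.02c, chromosome II, 2660139 to 2660992), a small heat shock protein of the Hsp20 family, and hsp9 (SPAP8A3.04c, chromosome I, 5319957 to 5320676), the relative of the budding yeast membrane-protecting protein Hsp12, rose at every plasma time with no overlap with the controls, control b included. hsp16 had 236, 416 and 261 CPM at 10 min, 284, 594 and 510 CPM at 15 min, 462, 701 and 636 CPM at 30 min, 152, 147 and 133 CPM after H2O2, and 61.8, 150 and 57.9 CPM without irradiation. Its fold change was 3.38 at 10 min, 5.14 at 15 min and 6.66 at 30 min (log2 1.76 ± 0.34, 2.36 ± 0.35 and 2.74 ± 0.35; adjusted p = 0.00079, 4.32e-05 and 7.7e-06). Without control b the log2 values were 2.34 ± 0.30, 2.96 ± 0.31 and 3.34 ± 0.31. After H2O2 hsp16 did not pass (0.68 ± 0.34, adjusted p = 0.101), and control b lay within the range of the H2O2 libraries. Without control b it passed (1.27 ± 0.29, adjusted p = 0.00191). It also passed with the letter as a block (0.80, 0.00702), though letters do not pair these groups.

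hsp9 was the only member to rise after H2O2 with all controls kept and no block. It had 2413, 3703 and 2813 CPM at 10 min, 3830, 3978 and 3948 CPM at 15 min, 5130, 5723 and 5707 CPM at 30 min, 3561, 3353 and 3365 CPM after H2O2, and 970, 2154 and 763 CPM without irradiation. The treated libraries all lay above the controls. The log2 fold change was 1.20 ± 0.27 (adjusted p = 0.00241), 1.60 ± 0.27 (0.00017) and 2.09 ± 0.28 (1.02e-05) at 10, 15 and 30 min, and 1.40 ± 0.27 after H2O2 (0.000472). Without control b it was 1.77 ± 0.15, 2.18 ± 0.15, 2.69 ± 0.16 and 1.99 ± 0.15. No single library left out ended any of these calls. Of the listed interval of hsp9, 8.89% is shared with a non-coding gene.

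ssa2, hsp90 and sti1 encode the main constitutive Hsp70, the Hsp90 chaperone and the co-chaperone that joins them. All 3 were abundant or moderately so without irradiation and moved by less than 2-fold with all controls kept. ssa2 (SPCC1739.13, chromosome III, 2057084 to 2059331) had 11155, 15504 and 15212 CPM at 10 min, 8876, 12079 and 11708 CPM at 15 min, 12242, 14841 and 14477 CPM at 30 min, 7545, 7052 and 7034 CPM after H2O2, and 7095, 12439 and 7428 CPM without irradiation. It rose by 0.63 ± 0.19 at 10 min (adjusted p = 0.0173) and 0.62 ± 0.19 at 30 min (0.0118), and had 0.28 ± 0.19 at 15 min (0.248) and -0.32 ± 0.19 after H2O2 (0.18). Without control b the plasma values were 0.93, 0.59 and 0.95 in time order, all past the threshold, and that after H2O2 was 0.00 ± 0.15. The 10 min call was lost without control a (0.49, adjusted p = 0.0822), control c (0.52, 0.0702), 10 min library b (0.54, 0.073) or c (0.56, 0.0593) and in the fit to the 2 groups alone (0.64, 0.0948). The 30 min call was lost without control a (0.48, 0.0618) or c (0.50, 0.0548).

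hsp90 (SPAC926.04c, chromosome I, 3888558 to 3891157) had 6238, 8052 and 7971 CPM at 10 min, 4395, 6458 and 6038 CPM at 15 min, 5899, 6737 and 6839 CPM at 30 min, 3334, 3235 and 3302 CPM after H2O2, and 4053, 7549 and 4161 CPM without irradiation. Every H2O2 library was below every control. It fell after H2O2 by 0.68 ± 0.20 on the log2 scale (adjusted p = 0.0111), and without control b the value was -0.31 ± 0.14 and did not pass (0.0845). After plasma the log2 fold change was 0.50, 0.10 and 0.31 (SE 0.20 each; adjusted p = 0.0647, 0.705 and 0.21) in time order. It passed at 10 min with the letter block (0.52, adjusted p = 0.0179), with total counts (0.48, 0.03) and without 10 min library a (0.61, 0.0435), and without control b it was 0.85, 0.46 and 0.68, past the threshold at each time (adjusted p = 0.00036, 0.0167 and 0.00114).

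sti1 (SPCC645.14c, chromosome III, 1261338 to 1263716) had 1163, 1645 and 1532 CPM at 10 min, 830, 1380 and 1272 CPM at 15 min, 1173, 1379 and 1352 CPM at 30 min, 607, 579 and 563 CPM after H2O2, and 696, 1594 and 645.3 CPM without irradiation. It fell after H2O2 by 0.75 ± 0.27 on the log2 scale (adjusted p = 0.0308). This call was lost without any one H2O2 library (a -0.78, adjusted p = 0.0577; b -0.74, 0.0706; c -0.72, 0.0784), without control b (-0.20, 0.369), in the fit to the 2 groups alone (-0.74, 0.084) and with DESeq2 (-0.75, 0.0503). After plasma the log2 fold change was 0.56 ± 0.27, 0.25 ± 0.27 and 0.41 ± 0.27 in time order, none past the threshold with all controls and no block. At 10 min it passed with the letter block (0.62, adjusted p = 0.0296), and without control b the values were 1.1 ± 0.18, 0.80 ± 0.18 and 0.97 ± 0.18, all past it.

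mas5 (SPBC1734.11, chromosome II, 1080922 to 1083347), the main cytosolic Hsp40, and hsp60 (SPAC12G12.04, chromosome I, 339766 to 342080), the mitochondrial chaperonin, had small differences. mas5 had 872, 1120 and 1148 CPM at 10 min, 653, 890 and 871 CPM at 15 min, 828, 931 and 891 CPM at 30 min, 647, 652 and 673 CPM after H2O2, and 724, 1009 and 716 CPM without irradiation. With TMM, all libraries and no block it passed in none of the 4 comparisons with no irradiation, with log2 fold changes between -0.31 and 0.36. It was higher at 10 min with the letter block (0.36, adjusted p = 0.0135), with total counts (0.33, 0.0267), with DESeq2 (0.35, 0.0367) and without 10 min library a (0.48, 0.0199). After H2O2 it was lower with total counts (-0.33, adjusted p = 0.0216) and with the letter block (-0.30, 0.0265). The same held without control a (-0.39, 0.0482) or c (-0.40, 0.0384), and every H2O2 library was below every control. Without control b mas5 was higher at 10 min (0.53 ± 0.13, adjusted p = 0.00385) and 30 min (0.31 ± 0.13, 0.0465). There it did not pass at 15 min (0.17 ± 0.13, 0.29) or after H2O2 (-0.12 ± 0.13, 0.431). hsp60 had 358, 413 and 368 CPM at 10 min, 207, 306 and 296 CPM at 15 min, 340, 339 and 346 CPM at 30 min, 206, 223 and 197 CPM after H2O2, and 275, 382 and 234 CPM without irradiation. It fell after H2O2 by 0.51 ± 0.15 (adjusted p = 0.0116) with every H2O2 library below every control, but without control b the value was -0.28 ± 0.13 (0.0861). After plasma hsp60 did not pass at any time with all controls and no block. With the letter block it was higher at 10 min (0.37, adjusted p = 0.0287), and without control b it was higher at 10 min (0.57 ± 0.13, adjusted p = 0.00303) and 30 min (0.44 ± 0.13, 0.00989). At 15 min hsp60 did not pass without control b (0.09 ± 0.13, 0.595).

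sks2 (SPBC1709.05, chromosome II, 1106347 to 1108511), a relative of the budding yeast Hsp70 Ssb, which works on ribosomes with newly made chains, fell at 15 and 30 min after plasma. It had 4444, 5373 and 5562 CPM at 10 min, 4720, 4592 and 4663 CPM at 15 min, 3829, 4287 and 4300 CPM at 30 min, 4951, 4773 and 4687 CPM after H2O2, and 5314, 5725 and 5770 CPM without irradiation. Control b was not high for this gene. The log2 fold change was -0.13 ± 0.09 at 10 min (adjusted p = 0.271), -0.27 ± 0.09 at 15 min (0.0206), -0.44 ± 0.09 at 30 min (0.000597) and -0.22 ± 0.09 after H2O2 (0.0462). All 15 min, 30 min and H2O2 libraries lay below all controls. Without control b the plasma values were -0.12 ± 0.10, -0.24 ± 0.10 and -0.40 ± 0.09 in time order. The 30 min call held without any one library. The 15 min call was lost without control c (-0.24, adjusted p = 0.0567), 15 min library b (-0.26, 0.0593) or c (-0.26, 0.0524). The H2O2 call was lost without control b (-0.20, 0.0968), control c (-0.20, 0.11) or any one H2O2 library (a -0.24, 0.0742; b -0.22, 0.103; c -0.20, 0.117), and with RLE size factors (adjusted p = 0.0522).

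The 3 plasma times were compared with each other without any control library. At 15 min against 10 min, 3 members were lower (5.96% of all genes tested) and 0 higher (7.67%). hsp104 fell by 1.54 ± 0.40 on the log2 scale (adjusted p = 0.0183), ssa1 by 1.71 ± 0.48 (0.0284) and hsp60 by 0.49 ± 0.15 (0.0452), each with no overlap. At 30 min against 15 min, hsp104 was higher by 1.43 ± 0.40 (0.0145) and ssa1 by 1.69 ± 0.48 (0.0171), again with no overlap; 2 members were higher (15.1% of all genes) and 0 lower (13.7%), or 2 and 1 with total counts in place of TMM (7.25% and 17.4%). In the fit to the 2 groups alone hsp9 was also higher (0.49, adjusted p = 0.00152). At 30 min against 10 min hsp104 (-0.11 ± 0.39) and ssa1 (-0.02 ± 0.47) were close to 0, while hsp16 (0.98 ± 0.33, adjusted p = 0.0293) and hsp9 (0.89 ± 0.27, 0.0157) were higher and sks2 lower (-0.31 ± 0.09, 0.0124). That makes 2 members higher (19.9% of all genes) and 1 lower (18.9%). Groups did not overlap for 4 members at 15 against 10 min (34.5% of all genes), 6 at 30 against 15 min (49.3%) and 4 at 30 against 10 min (52.1%).

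These time differences had limited margins. At 15 min against 10 min the hsp104 call was lost without 10 min library b (-1.35, adjusted p = 0.0631) or 15 min library a (-1.33, 0.0807). The ssa1 call was lost without 10 min b (-1.37, 0.105), 15 min a (-1.44, 0.114) or 15 min c (-1.75, 0.0737). The hsp60 call was lost with RLE size factors (adjusted p = 0.0511) and without any one library of these 2 groups but 15 min b, with values of -0.53, -0.42 and -0.50 without 10 min a, b and c and -0.34 and -0.55 without 15 min a and c. At 30 min against 15 min the hsp104 call was lost without 15 min a (1.22, 0.0626), and that of ssa1 without 15 min a (1.42, 0.0699), 30 min b (1.58, 0.0523) or 30 min c (1.53, 0.0549). At 30 min against 10 min the hsp16 call was lost without 10 min a (0.82, 0.114) or c (0.90, 0.0927) or 30 min b (0.85, 0.0983) or c (0.94, 0.0715), that of hsp9 without 10 min a (0.76, 0.0683), and that of sks2 without 10 min b (-0.25, 0.0572) or c (-0.22, 0.0742) or 30 min a (-0.26, 0.0521) and in the fit to the 2 groups alone (-0.31, 0.11).

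Against H2O2, plasma gave higher levels of most members at 10 and 30 min. At 10 min 8 members were higher (14.8% of all genes) and 0 lower (17.5%), and at 30 min 8 were higher (15.3%) and 0 lower (16.7%), or 8 and 1 with total counts (9.23% and 16%). At 15 min 4 were higher (9.9%) and 0 lower (13.2%). Groups did not overlap for 8 members at 10 min (48.3% of all genes), 5 at 15 min (43.3%) and all 10 at 30 min (50.7%). These comparisons do not use the control libraries, but the plasma and H2O2 libraries come from separate tables. hsp90 averaged 7420 ± 1025 CPM at 10 min, 5630 ± 1090 at 15 min and 6492 ± 516 at 30 min, against 3290 ± 50.2 CPM after H2O2 (SD, n = 3 each), log2 fold changes of 1.17 ± 0.21, 0.78 ± 0.20 and 0.98 ± 0.20 (adjusted p = 0.000445, 0.0123 and 0.00202). hsp16 was higher by 1.08 ± 0.34, 1.68 ± 0.34 and 2.06 ± 0.34 (0.0226, 0.00207 and 0.000361), and sti1 by 1.31 ± 0.28, 0.99 ± 0.27 and 1.16 ± 0.27. ssa2 was also higher at all 3 times, by 0.95 ± 0.20, 0.59 ± 0.19 and 0.94 ± 0.20. The plasma libraries of these 4 genes lay above all H2O2 libraries at each time.

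ssa1 was higher than after H2O2 at 10 min (2.04 ± 0.49, adjusted p = 0.00482) and 30 min (2.02 ± 0.49, 0.00539), but had 0.33 ± 0.47 at 15 min (0.67). hsp104 was higher at 10 min (1.32 ± 0.40, 0.0192) and 30 min (1.21 ± 0.40, 0.0292), with -0.22 ± 0.39 at 15 min (0.737). hsp60 (0.86 ± 0.15 and 0.71 ± 0.15) and mas5 (0.67 ± 0.14 and 0.43 ± 0.14) were likewise higher at 10 and 30 min. Without 15 min library a, hsp60 (0.53, adjusted p = 0.0162) and mas5 (0.42, 0.0439) were higher at 15 min as well. hsp9 and sks2 passed at none of the 3 times in the joint fit with TMM. hsp9 had -0.20 ± 0.27, 0.19 ± 0.27 and 0.69 ± 0.27 in time order, the last with adjusted p = 0.0633, although every 30 min library was above every H2O2 library. In fits to the 2 groups alone hsp9 was higher at 15 min (0.20, adjusted p = 0.0171) and 30 min (0.70, 4.59e-05), and sks2 was lower at 30 min there (-0.20, 0.032), with DESeq2 (-0.21, 0.0261) and with total counts (-0.26, 0.0014). Calls lost on leaving out 1 library were those of hsp104 at 10 min (without H2O2 b 1.29, adjusted p = 0.0582; H2O2 c 1.29, 0.0589; 10 min b 1.12, 0.0707), of hsp104 at 30 min (1.12 to 1.26 without H2O2 a, b or c or 30 min b or c), of hsp16 at 10 min (0.78 without 10 min b, 1.02 to 1.12 without H2O2 a, b or c), of mas5 at 30 min (0.39 to 0.44 without H2O2 a, b or c or 30 min b or c), and at 15 min of hsp90 (0.66 without 15 min b), ssa2 (0.51 to 0.63 without H2O2 a, b or c or 15 min b or c) and sti1 (0.85 to 0.99 without H2O2 b or c or 15 min b or c).

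**Figure D4:**
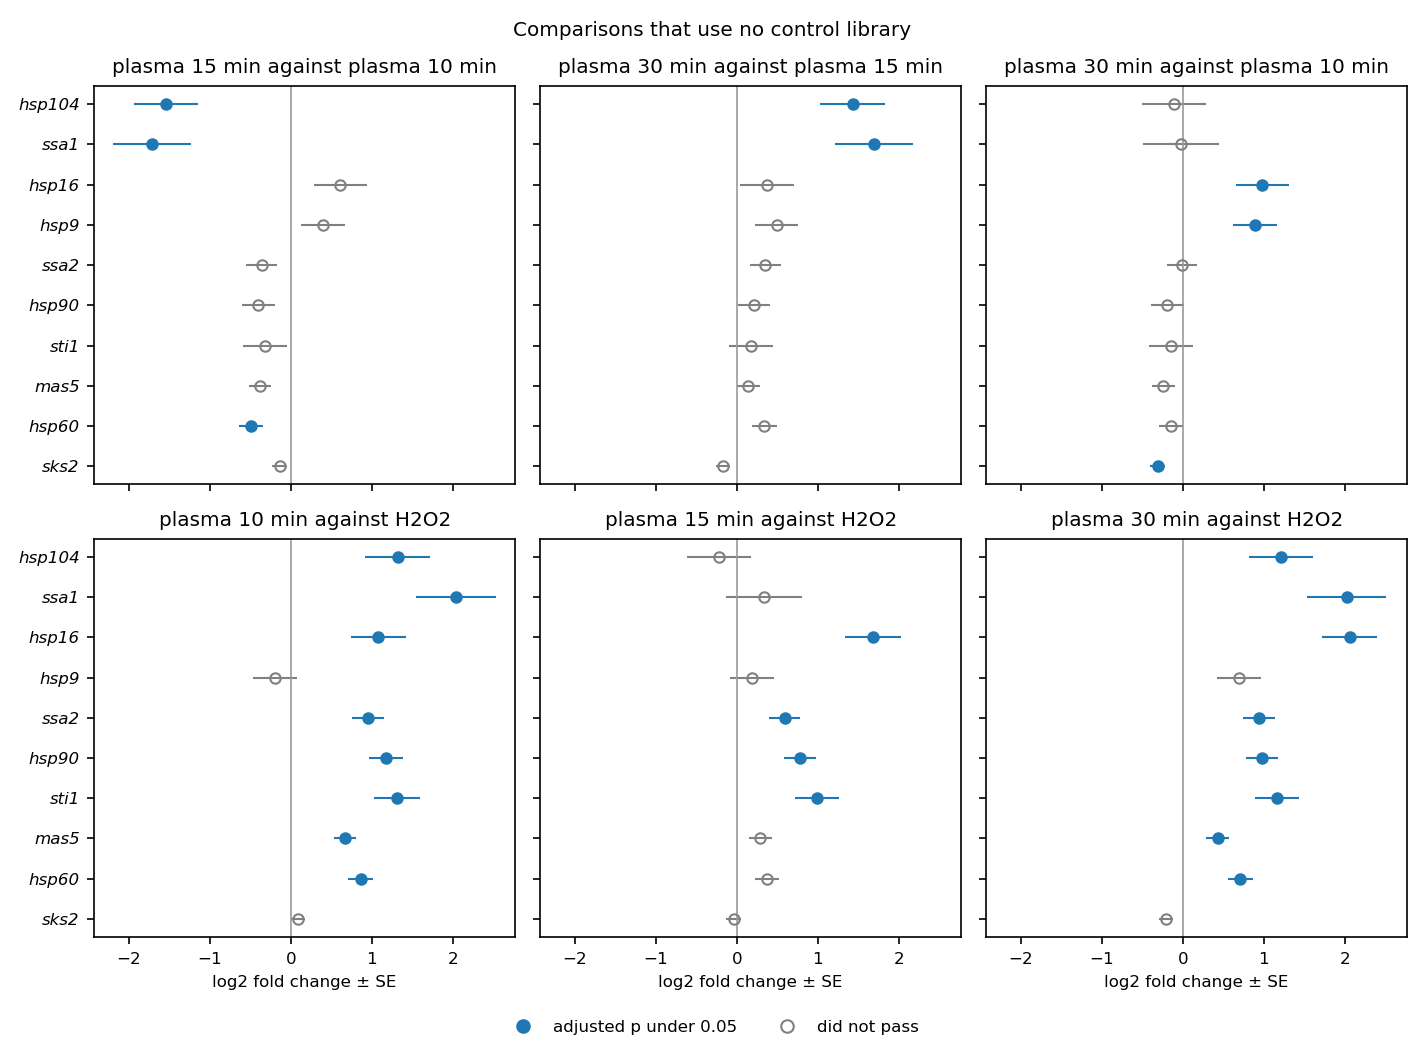
Log2 fold change ± SE of the 10 members between plasma times (upper row) and between plasma and H2O2 (lower row), comparisons in which no control library enters. Filled circles passed at an adjusted p under 0.05. hsp104 and ssa1 stand out below 0 at 15 against 10 min and above 0 at 30 against 15 min, and 8 members are filled above 0 at 10 and 30 min against H2O2.

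Across the 15 libraries the members followed a few profiles. As a description over libraries of 5 groups, Pearson's r of log2 CPM was 0.98 between hsp104 and ssa1, 0.99 between hsp90 and sti1, 0.96 between hsp90 and ssa2, and 0.87 between hsp16 and hsp9, and it changed by no more than 0.01 without control b. sks2 ran against hsp9 (r = -0.71). Among 4612 genes with a mean count of at least 50, the 5 other genes most like hsp104 were SPAPB1A10.05 (r = 0.989), slt1 (0.965), hsp78 (0.951), pgm1 (0.95) and psi1 (0.947). hsp78 encodes the mitochondrial relative of Hsp104 and psi1 an Hsp40. Those most like sks2 were rps601 (0.964), tif303 (0.953), rps1902 (0.95), gua1 (0.946) and rps802 (0.945), 3 of them genes of ribosomal proteins and 1, tif303, of a translation initiation factor.

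Other chaperone genes were read from 8 lists of 67 names, of which 41 genes outside the 10 members were tested. A further 14 matched a gene with too few counts, and each of these had at least 91.4% of its listed interval in common with other listed genes. Among the 41 tested that share was at most 87.9%. Few counts for the 14 can therefore not be read as low expression. hsf1, the gene of the heat shock factor, had 340, 375 and 345 CPM at 10 min, 323, 385 and 355 CPM at 15 min, 346, 382 and 394 CPM at 30 min, 361, 344 and 389 CPM after H2O2, and 230, 221 and 236 CPM without irradiation. It rose in all 4 comparisons, by 0.63, 0.63, 0.71 and 0.67 (SE 0.07 each; adjusted p = 7.33e-06, 4.28e-06, 7.94e-07 and 1.94e-06), and control b was the lowest control for it. The 4 tested genes of the small heat shock and DJ-1 list all rose at all 3 plasma times (medians 1.25, 1.69 and 1.76), and 1 rose after H2O2. Among them hsp3104 rose by 1.44 ± 0.15, 1.90 ± 0.15, 2.29 ± 0.15 and, after H2O2, 2.74 ± 0.16, and hsp3103 by 1.05 ± 0.11, 1.48 ± 0.11 and 1.78 ± 0.11 at the plasma times. Both belong to the DJ-1 family. The count after H2O2 was 2 with the block and without control a. Of all genes tested, 21.9%, 27.1% and 31% were higher in time order and 28.5% after H2O2, and 17%, 24.8% and 29% were lower and 25.6% after H2O2.

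Hsp70 and Hsp40 partners moved both ways. Of 5 tested, 2 rose and 0 fell at 10 min (21.9% and 17% of all genes tested). At 15 min 1 rose and 2 fell (27.1% and 24.8%), as at 30 min (31% and 29%). After H2O2, 0 rose and 3 fell (28.5% and 25.6%). Without control b, 3 rose at 15 min, 2 at 30 min and 1 after H2O2, and with the block 2 rose at 30 min. psi1 rose by 1.18 ± 0.29 at 10 min (adjusted p = 0.00476; 1.77 without control b). pss1, of the Hsp110 family, was at 2080 ± 225 CPM at 10 min against 1750 ± 210 CPM without irradiation, with a call (0.25, adjusted p = 0.0494) that was lost without control a (0.18) or c (0.22) or 10 min b (0.22) or c (0.17). It was lost as well with RLE size factors (0.24, adjusted p = 0.0659), no filter (0.25, 0.0517) and the 2 groups alone (0.25, 0.207), which leaves 1 gene higher at 10 min. pss1 rose by 0.46 ± 0.10 at 15 min. zuo1, whose budding yeast relative is the Hsp40 partner of the ribosomal Hsp70, fell by 0.49 ± 0.07 at 30 min and by 0.41 ± 0.07 after H2O2. bag102, a nucleotide exchange factor, fell by 0.22 ± 0.05, 0.23 ± 0.05 and 0.19 ± 0.05 at 15 min, at 30 min and after H2O2.

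Of 7 tested Hsp90 partners, 1 rose and 1 fell at 10 min (21.9% and 17% of all genes tested). At 15 min 1 rose and 3 fell (27.1% and 24.8%), and at 30 min 2 rose and 2 fell (31% and 29%). After H2O2, 1 rose and 3 fell (28.5% and 25.6%). Over the alternatives the numbers that rose ranged from 0 to 2, 0 to 2, 1 to 3 and 0 to 1, and those that fell from 0 to 1, at 3 throughout, from 2 to 3 and from 2 to 5. Without control a or c, 0 rose at 10 and 15 min and 1 at 30 min, without control b 2 rose at 10 and 15 min, and without control c 5 fell after H2O2. wos2, the p23 co-chaperone, was higher at 10 min (0.60 ± 0.19, adjusted p = 0.0195; 0.94 without control b), a call lost without control a (0.48) or c (0.43) or 10 min b (0.55) or c (0.54). cns1 fell by 0.26 ± 0.06 at 15 min, 0.68 ± 0.07 at 30 min and 0.54 ± 0.06 after H2O2. Its 10 min value of -0.20 (adjusted p = 0.0233) did not pass without control b (-0.12) or 10 min a (-0.18) or b (-0.20). rvb2 fell by 0.23 ± 0.05, 0.28 ± 0.05 and 0.20 ± 0.05 at 15 min, at 30 min and after H2O2.

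Subunits of TRiC, the chaperonin of the cytosol, were lower. Of its 8 subunits 4 were tested, of which 1 was lower at 10 min and all 4 were lower at 15 min, at 30 min and after H2O2 (medians -0.16, -0.28, -0.31 and -0.24). Of all genes tested, 17%, 24.8%, 29% and 25.6% were lower in these comparisons. The 10 min count was 3 with total counts, with DESeq2 and without 10 min c, and 2 with RLE size factors and without control c or 10 min b. It was 0 in the fit to the 2 groups alone, where cct7 was lost (adjusted p = 0.0737). The count after H2O2 was 3 without any one library of that comparison. cct7 fell by 0.21 ± 0.05, 0.37 ± 0.05, 0.32 ± 0.05 and 0.28 ± 0.05, and cct1 by 0.29 ± 0.06, 0.37 ± 0.06 and 0.31 ± 0.06 in the last 3 comparisons. Of 5 tested prefoldin subunits, which hand chains to TRiC, 1, 2, 3 and 3 were lower. The 10 min count was 0 without control a or b or 10 min a or b and in the fit to the 2 groups alone. pfd4 fell by 0.24 ± 0.05, 0.21 ± 0.05 and 0.28 ± 0.05 at 15 min, at 30 min and after H2O2. pfd3 fell by 0.32 ± 0.07 at 30 min and 0.38 ± 0.07 after H2O2. Its 10 min call (-0.21) was lost without control a (-0.21) or b (-0.13) or 10 min a (-0.20) or b (-0.21), and its 15 min call (-0.26) without control b (-0.16, adjusted p = 0.0586).

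In the mitochondrial list 8 genes were tested besides hsp60. At 10 min 3 rose and 1 fell, at 15 min 2 and 2, at 30 min 3 and 3, and after H2O2 2 and 2. Of all genes tested, 21.9% and 17%, 27.1% and 24.8%, 31% and 29%, and 28.5% and 25.6% did so. The 10 min increases were 1 without control a or 10 min b and in the fit to the 2 groups alone, and the decreases 2 with DESeq2. At 15 min 4 rose without control b and 15 min a together, and the decreases were 1 with total counts, in the fit to the 2 groups alone and without control a or 15 min a or b. After H2O2, increases were 1 with total counts and in the fit to the 2 groups alone, and decreases 1 with no filter, in the fit to the 2 groups alone and without control a or H2O2 b or c. hsp78 rose by 1.14 ± 0.30 at 30 min (815 ± 135 CPM against 369 ± 214 CPM without irradiation; 1.75 without control b). yta12, a membrane protease subunit, rose by 0.23 ± 0.06, 0.31 ± 0.06 and 0.60 ± 0.06 at 15 min, at 30 min and after H2O2, and mdj1, the mitochondrial Hsp40, by 0.37 ± 0.09 at 10 min. tim44, which brings Hsp70 to the import channel, fell by 0.46 ± 0.08 at 10 min, 0.47 ± 0.08 at 15 min and 0.57 ± 0.08 after H2O2. Median changes of the Hsp90 partner, Hsp70 and Hsp40, mitochondrial, TRiC and prefoldin lists lay between -0.38 and 0.25 in the 4 comparisons.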

How the data were processed

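RNA from 15 libraries was counted per gene. The submitters' processing notes name HISAT2 2.2.1, SAMtools 1.13 and a build called R64. The deposited raw counts came from featureCounts 2.0.1, per the file headers, with transcript features summed by gene and no strand option, so reads in stretches shared by 2 genes cannot be assigned with certainty. Per the labels' protocols the library kit was stranded. Coordinates of genes are those of the deposited tables. RefSeq ASM294v3 gave names (6852 identifiers matched) and upstream sequence; 1547 of 1557 lncRNA and tRNA genes had the same coordinates in both, and all 10 members shared a start or an end.

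From these counts, edgeR 4.0.16 (R 4.3.3) was run with TMM scaling, filterByExpr and the two-sided quasi-likelihood test, all 15 libraries in 1 model with a mean per group, p-values adjusted over the 5214 genes tested (Benjamini-Hochberg, 0.05). The fit was tested on simulated data. The p-values measure the spread between samples that the labels call biological replicates, whose biological coefficient of variation was 8.8% over all genes and a chi-square per degree of freedom of 8.757 to 78.79 between replicate pairs. Library totals limit the precision of low counts. Columns carry letters a, b and c. Same-lettered libraries deviated together in all 3 pairs at 10 min against no irradiation (r 0.206 to 0.31) and at 30 min against 10 min (r 0.124 to 0.227). At 15 and 30 min against no irradiation r was 0.065 to 0.128 and 0.087 to 0.305, and at 15 against 10 min 0.066 to 0.114. In all of these comparisons each library was most like its own letter, so the letters pair these groups at least in part. The main tests leave this pairing out, and the letter block was run as an alternative. The 4 treatments share the 3 control libraries.

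The members and lists were chosen with earlier results of these data known. All 10 members are named, of each list the 2 genes with the smallest p among those that passed against no irradiation, and the 5 genes most like hsp104 and sks2. Alternatives were RLE factors, total counts, no filter, DESeq2 1.42.0, the letter as block, the 2 groups alone and each library left out. Added after seeing the data were control b and 15 min a left out together, the alternatives for list genes, the unshared length, and the search for a run common to the ssa1, ssa2 and hsp90 windows.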

Additional observations from a re-analysis of the deposited data

Results flagged for a closer look

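The 8 results flagged are differences between plasma times by a test of the difference itself (edgeR quasi-likelihood test, 3 libraries a group). At 15 min against 10 min these were hsp104 (log2 fold change -1.54, adjusted p = 0.0183), ssa1 (-1.71, 0.0284) and hsp60 (-0.49, 0.0452). At 30 min against 15 min they were hsp104 (1.43, 0.0145) and ssa1 (1.69, 0.0171). At 30 min against 10 min they were hsp16 (0.98, 0.0293), hsp9 (0.89, 0.0157) and sks2 (-0.31, 0.0124). In each of them all 3 libraries of the later time lay on one side of the earlier ones. Library a of the 15 min group, which was low for most members, takes part in the first 5; without it hsp104 and ssa1 were at -1.33 and -1.44 at 15 against 10 min and at 1.22 and 1.42 at 30 against 15 min, hsp60 was at -0.34, and none of these 5 passed. Its part in these results was not tested further.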

How the results depend on the processing

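Over 1210 combinations of member, comparison and alternative, 1050 kept direction and side of the threshold, 88 lost a call, 45 gained one and 27 turned direction. Of the 27, 7 passed the threshold after the turn and 20 passed neither before nor after. Those that passed were, without control b, hsp104 (0.59) and ssa1 (1.03) at 15 min and hsp104 after H2O2 (0.81), and, without control b and 15 min a, hsp104 (0.8), ssa1 (1.3), mas5 (0.3) and hsp60 (0.25) at 15 min. Leaving out libraries, the members that turned ranged at 15 min from -0.68 to 0.8 (hsp104), -0.41 to 1.3 (ssa1), -0.11 to 0.3 (mas5), -0.28 to 0.25 (hsp60) and -0.06 to 0.61 (hsp90). After H2O2 they ranged from -0.45 to 0.81 (hsp104) and -0.74 to 0.7 (ssa1), at 30 against 15 min from -0.03 to 0.31 (sti1), and at 30 against 10 min from -0.19 to 0.1 (hsp104), -0.18 to 0.32 (ssa1) and -0.15 to 0.1 (ssa2). The block turned ssa1 at 15 min (0.1) and at 30 against 10 min (0.01) and hsp104 after H2O2 (0.08). The cause of these shifts was not tested. Leaving out each library in turn gave 2 to 9 members higher at 10 min (18.7% to 21.7% of all genes). At 15 min it gave 2 to 7 higher (24.1% to 27.3%) and 0 to 1 lower (19.3% to 23.8%). At 30 min 3 to 9 were higher (28% to 31.8%). After H2O2, 1 to 3 were higher (25.8% to 28.5%) and 0 to 5 lower (20.9% to 25%). At 15 against 10 min 0 to 3 were lower (3.6% to 4.58%), and at 30 against 15 min 0 to 2 higher (11% to 12.8%). At 30 against 10 min 0 to 2 were higher (16.5% to 20.9%) and 0 to 1 lower (13.7% to 17.5%). At 15 min against H2O2 as few as 1 was higher, without 15 min b (6.86%). Without 15 min a, mas5 (0.42, adjusted p = 0.0439) and hsp60 (0.53, 0.0162) were added to the 4 higher with all libraries (8.84%). Without control b and 15 min a, 9 were higher and 0 lower at 15 min (26.2% and 21.7%). Total counts gave 1 member lower at 10 min against no irradiation, at 30 against 15 min and at 30 min against H2O2, sks2 each time. The shares of all genes lower there were 15.6%, 17.4% and 16%. The 2 groups alone gave 3 higher at 10 min (17.4% of all genes) and 0 lower at 30 against 10 min (19.2%). At 30 min against H2O2 1 was lower in fits to the 2 groups alone (18.4%), as with DESeq2 (16.7%). The fits to the 2 groups alone also added hsp9 as higher at 30 against 15 min (adjusted p = 0.00152) and, against H2O2, at 15 min (0.0171) and 30 min (4.59e-05). With the replicate block, 9 members were higher at 10 min (22.3% of all genes). Where letters do not pair the groups, 2 were higher with the block after H2O2 (29%). There hsp16 was gained (adjusted p = 0.00702), mas5 gained as lower (0.0265) and sks2 lost (0.0537). The block also added mas5 at 15 against 10 min (0.0243), hsp60 at 30 against 15 min (0.0422) and at 15 min against H2O2 (0.0483), and hsp9 at 30 min against H2O2 (0.0313). Each library was most like its own letter in all 6 libraries for 10, 15 and 30 min against no irradiation, 15 against 10 min and 30 against 10 min, and in 2 to 4 of 6 elsewhere.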

Other observations

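Chaperones of the endoplasmic reticulum, which fold secreted proteins, gave mixed results. Of 7 tested, 1 rose and 1 fell at 10 min (21.9% and 17% of all genes tested). At 15 min 1 rose and 2 fell (27.1% and 24.8%), and at 30 min 3 rose and 3 fell (31% and 29%). After H2O2, 2 rose and 2 fell (28.5% and 25.6%). The medians in these comparisons were 0.02, -0.11, 0.10 and -0.04. Without control b the numbers that rose at 10 and 15 min were 3 and 2 and the number that fell after H2O2 was 0. ero11, an oxidase gene, rose by 0.62 ± 0.09 at 30 min, at 288 ± 4.52 CPM against 188 ± 27.4 CPM without irradiation, and by 0.36 ± 0.09 after H2O2. Its 10 min call (0.31, adjusted p = 0.011) was lost without control a (0.26, 0.0532), control c (0.23, 0.0505) or 10 min b (0.25, 0.0654). ero12, another, fell by 0.20 ± 0.04, 0.27 ± 0.04 and 0.23 ± 0.04 at 10, 15 and 30 min and was higher after H2O2, at 134 ± 0.819 CPM against 117 ± 2.87 CPM (0.20 ± 0.04, adjusted p = 0.0011); with total counts that last call was lost (0.18, 0.078). The membrane chaperone calnexin, cnx1, rose by 0.36 ± 0.10 at 15 min, at 1320 ± 98.3 CPM against 1030 ± 179 CPM.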
